A study of Mus musculus with 48 samples.

Results

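Type II interferon was read out in the collagen-induced arthritis (CIA) data through 10 of the 34586 genes of the single-cell table. The genes were chosen by name, with earlier results of these data known, and comprise the guanylate-binding proteins Gbp2, Gbp3, Gbp4 and Gbp7, the immunity-related GTPases Irgm1, Igtp and Iigp1, the transcription factor Irf1, and the chemokines Cxcl9 and Cxcl10. The 48 libraries came from 10 male DBA1/J mice, of which 6 had received bovine type II collagen (100 µg) in complete Freund's adjuvant, with a booster in incomplete Freund's adjuvant on day 20, and 4 were healthy controls given PBS. Cells of joint, lung, muscle, skin and spleen were profiled by Seq-Well, a microwell method that captures the messenger RNA of single cells and counts molecules through unique molecular identifiers (UMIs). Mice S1, S2 and S3 had an arthritis score of 8, S5 a score of 4 to 5, S6 of 3 to 4 and S8 of 2 to 3, and joint data were analysed for 3 healthy and 5 CIA mice. All 3 mice with a score of 8 were processed in the same experiment, with H3 as its only healthy mouse, and the other 6 mice in the other experiment, so severity and experiment cannot be told apart among the CIA mice.

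Interferon gamma, the product of Ifng, is secreted mainly by T cells and NK cells and signals through the receptor Ifngr1 and Ifngr2, and many of its target genes carry gamma-activated sites (GAS). Irf1 is an early target and is itself a transcription factor that binds interferon-stimulated response elements (ISRE), which type I interferons also act through. Guanylate-binding proteins and immunity-related GTPases act on the vacuoles of intracellular microbes, with Iigp1 an effector that is loaded onto the vacuole and Irgm1 and Igtp regulators of such effectors. Cxcl9 and Cxcl10 are ligands of the receptor Cxcr3, which draws activated T cells and NK cells. In arthritis the cytokine is known for actions both for and against joint inflammation.

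Upstream sequences are shown for 4 members, to let a reader see how differently the interferon motifs are placed in an early factor gene (Irf1), in GTPase genes with both kinds of motif (Igtp and Gbp7) and in a chemokine gene (Cxcl10). Each is the run of 250 bases before the annotated start in RefSeq (build GRCm38.p6), 5′ to 3′ on the strand of the gene, with motif matches in capitals. The windows lie at chr11:53769764-53770013 (+ strand) for Irf1, chr11:58199306-58199555 (+ strand) for Igtp, chr3:142530086-142530335 (+ strand) for Gbp7 and chr5:92348890-92349139 (- strand) for Cxcl10.
Irf1: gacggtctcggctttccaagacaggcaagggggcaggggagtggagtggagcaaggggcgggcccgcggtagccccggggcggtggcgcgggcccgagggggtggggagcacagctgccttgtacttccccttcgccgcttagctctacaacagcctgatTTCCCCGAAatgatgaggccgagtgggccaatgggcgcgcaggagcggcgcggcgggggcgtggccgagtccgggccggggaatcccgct
Igtp: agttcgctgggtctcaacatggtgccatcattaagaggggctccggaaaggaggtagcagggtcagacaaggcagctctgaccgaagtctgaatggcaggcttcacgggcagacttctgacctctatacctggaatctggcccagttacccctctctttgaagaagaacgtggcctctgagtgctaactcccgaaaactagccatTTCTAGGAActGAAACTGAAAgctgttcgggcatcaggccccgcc
Gbp7: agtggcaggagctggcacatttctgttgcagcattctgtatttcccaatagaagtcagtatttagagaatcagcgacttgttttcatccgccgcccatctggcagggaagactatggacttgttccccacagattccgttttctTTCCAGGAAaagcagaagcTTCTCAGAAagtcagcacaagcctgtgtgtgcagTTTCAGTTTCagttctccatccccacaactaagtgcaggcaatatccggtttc
Cxcl10: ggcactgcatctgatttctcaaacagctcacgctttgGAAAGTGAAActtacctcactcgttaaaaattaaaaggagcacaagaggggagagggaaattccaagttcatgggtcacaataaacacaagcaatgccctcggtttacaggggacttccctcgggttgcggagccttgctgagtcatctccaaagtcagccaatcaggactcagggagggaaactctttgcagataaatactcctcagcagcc

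GAS was searched as TTCNNNGAA, which reads the same on both strands, and ISRE as GAAA, any 2 bases and GAAA or, on the other strand, TTTC, any 2 bases and TTTC. RefSeq windows were matched for 8 of the 10 members (10 windows); Gbp4 and Iigp1 were not matched. A GAS match stood upstream of 3 members (Gbp7, Igtp, Irf1) and an ISRE match upstream of 6 (Gbp2, Gbp3, Gbp7, Irgm1, Igtp, Cxcl10). Overlapping ISRE matches were found for Gbp3 and for Irgm1. In all, 7 of the 8 matched members held either motif in at least 1 window. The other window of Gbp3 and of Irf1 held neither. Over all genes, 9.69% of 32544 windows of the same length held either (7.04% for GAS and 2.98% for ISRE). That share counts windows, and the 7 of 8 counts members. For Cxcl9 these letters were not in the window. A match is a description of the sequence and not of binding.

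All 10 transcripts were sparse. Over the 12096 annotated cells (of 13240) the members together gave 3517 UMIs, or 330.3 CPM (counts for each 1000000 UMIs). Irf1 gave 1388 of them (39.5%), Iigp1 415, Cxcl10 366, Irgm1 315, Gbp3 307, Igtp 226, Gbp4 164, Gbp7 159, Gbp2 120 and Cxcl9 57. At least 1 member was counted in 2323 cells, at least 2 in 401 cells and at least 4 in 33 cells, and the most members in a single cell was 9. Irf1 was seen in 9.54% of cells and Cxcl9 in 0.364%. Seq-Well reads the 3′ end of transcripts, so these levels are counts of molecules and carry no gene length.

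Library totals ran from 17748 to 1645734 UMIs, so that 3 UMIs, the limit that a count of 0 allows, stood for 1.82 CPM in the deepest library and 169 CPM in the shallowest. Intervals and limits cover counting error only. The deposited cell type labels were checked against marker lists: in 8 of 13 types the list was highest in its own type, and in dendritic cells, monocytes, myocytes, neutrophils and T cells it was not. Cells labelled as myocytes had muscle markers at 82.5 CPM, against 1928 in endothelial cells, and 1492 of the 1625 came from the muscle of S6; they also held Cd79a at 453.5 CPM, a B cell gene. Cells labelled as T cells had Cd3d at 148 CPM, against 349 in NK cells. Of 13164 barcodes, 59 occurred in more than 1 library (135 cells in all), and these cells held 31 (0.881%) of the member UMIs. Muscle and spleen of S8 shared 36 of them, 12.6% of the 285 and 11.1% of the 324 cells; 34 pairs had the same label, and the median correlation of log expression was 0.733 between cells of the same barcode against 0.249 between unlike barcodes. Of the annotated cells in the muscle library of S8, 57.3% were labelled as B cells and none as fibroblasts, endothelial cells or myocytes, so this library stands apart from its label. Lung of S1 and spleen of H6 shared 13 barcodes. Leaving out all such cells changed no call. Values without them are given beside Iigp1 of joint, spleen and muscle only, and values without S8 beside Iigp1 of spleen and muscle. Other members changed too: without these cells Irf1 in muscle of S8 went from 20 to 12 UMIs and Cxcl9 in spleen of S8 from 8 to 6.

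Endothelial cells carried the highest level of the summed members, at 975.9 CPM (95% Poisson interval 898 to 1058; 553 cells). They were 4.57% of the annotated cells and held 16.6% of the member UMIs. Fibroblasts were next with 513.8 CPM (478 to 552; 1322 cells), close to NK cells at 487.2 CPM (423 to 559), and the intervals of these neighbours overlapped. T cells (366.8 CPM) and the cells labelled as myocytes (371 CPM) followed and also overlapped. Granulocytes were lowest at 99.6 CPM (82.9 to 119), below Basal III cells, an epidermal type, at 141.8 CPM (117 to 170), whose interval overlapped theirs only at its edge. At least 2 members were counted in 18.8% of endothelial cells and 8.47% of fibroblasts, but in 0.166% of granulocytes, although the median depth was alike (804, 809 and 844 UMIs per cell). Levels between cell types are described here without a test, since cells of a mouse share their library.

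**Figure D1:**
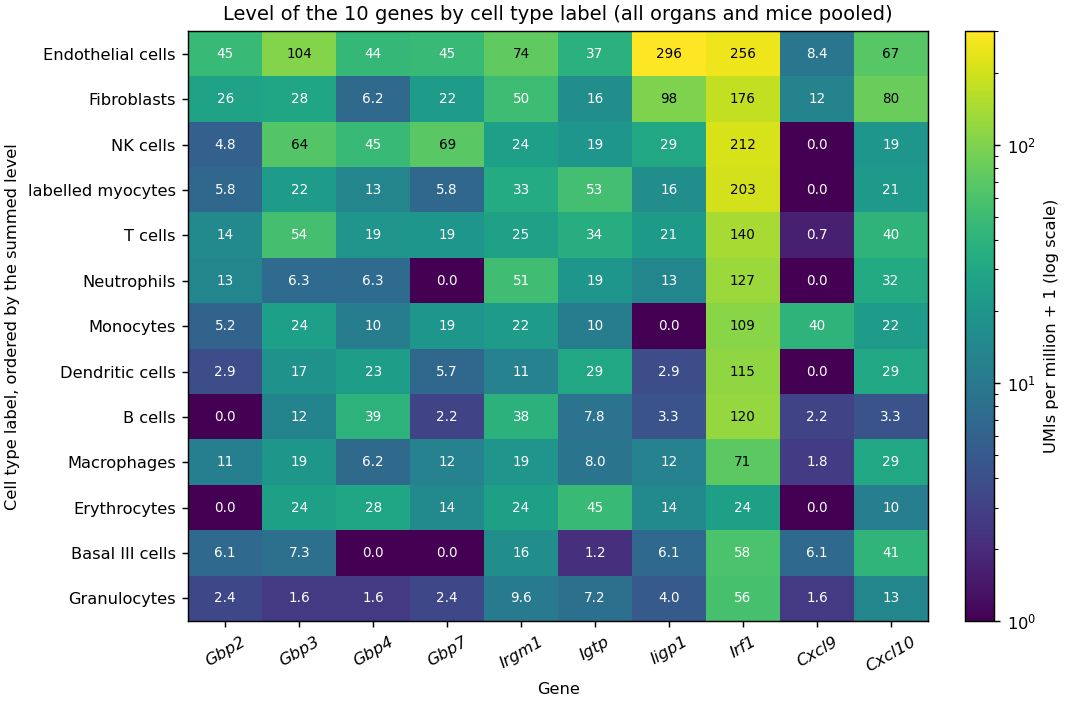
CPM of each of the 10 genes (columns) in each annotated cell type (rows), pooled over all organs and mice. Endothelial cells stand out for Iigp1 (296 CPM) and Gbp3 (104 CPM), monocytes for Cxcl9 (39.6 CPM) and fibroblasts for Cxcl10 (80.1 CPM).

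Iigp1 differed most between cell types. It reached 296 CPM in endothelial cells (254 to 343), 98.1 CPM in fibroblasts (82.6 to 116) and 28.7 CPM in NK cells, while no Iigp1 UMI was counted in 592 monocytes (upper limit 6.36 CPM) and 3 in 1372 B cells (3.33 CPM). An Iigp1 UMI was seen in 18.8% of endothelial cells and, after thinning every cell to 400 UMIs, in 10.5%. In B cells the thinned share was 0.132%, at a median depth of 579 UMIs. The Iigp1 transcript was therefore present in stromal and vascular cells well above the level in leukocytes.

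Irf1, the member with the most UMIs, was seen in every cell type. It stood at 256 CPM in endothelial cells (217 to 300), 212 CPM in NK cells, 203 CPM in the cells labelled as myocytes and 176 CPM in fibroblasts, and was lowest in erythrocytes (24.5 CPM). The endothelial and NK cell intervals overlapped. Among the guanylate-binding proteins, Gbp2 (45.2 CPM) and Gbp3 (104 CPM) were highest in endothelial cells, and no Gbp2 UMI was counted in B cells. Gbp4 was at 45.4 CPM in NK cells, 43.5 CPM in endothelial cells and 38.9 CPM in B cells, levels that did not differ beyond their intervals. Gbp7 was at 69.3 CPM in NK cells (46.4 to 99.5) and 45.2 CPM in endothelial cells (29.8 to 65.8), also overlapping. Irgm1 was highest in endothelial cells (73.7 CPM), and Igtp in the cells labelled as myocytes (53.4 CPM) with erythrocytes next (45.5 CPM). Igtp overlaps Irgm2, and Gbp4 overlaps Gbp8 and Gbp9, on the same strand, and both families hold close paralogs, so their counts are uncertain to the extent that reads were split or dropped between neighbours. Irf1 and Cxcl10 overlap genes of the opposite strand (Gm17334 and Art3), which had 9 and 52 UMIs in the table.

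The chemokines had other sources. Cxcl10 was highest in fibroblasts (80.1 CPM, 66.2 to 96.1), endothelial cells (67 CPM, 47.8 to 91.2) and Basal III cells (41.2 CPM), and lowest in B cells (3.33 CPM). Cxcl9 was highest in monocytes (39.6 CPM, 25.1 to 59.5, from 23 UMIs), with fibroblasts next at 11.7 CPM (6.84 to 18.8), where 1 cell of S5 joint held 8 of the 17 UMIs. Ifng itself gave 118 UMIs in 103 cells, with 54.9 CPM in NK cells, 25.2 CPM in T cells and 21.7 CPM in the cells labelled as myocytes, and none in Basal III cells and erythrocytes. The types richest in the ligand were thus not those richest in Iigp1 or Cxcl10.

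Within organs the same order held for the vessel and stromal cells. Cells were pooled by organ and type, giving 28 pools of 50 cells or more. Among them, muscle endothelial cells had 996 CPM of the summed members (882 to 1121), muscle fibroblasts 915 CPM (822 to 1016) and joint endothelial cells 868 CPM (760 to 986), and these intervals overlapped. Skin fibroblasts (415 CPM) and joint fibroblasts (340 CPM) were lower than muscle fibroblasts. Joint granulocytes were lowest at 71.8 CPM. The level of the summed members in the joint endothelial cells of single mice with at least 10 such cells was 715 CPM in H3, 1276 in H4, 1217 in S1, 526.2 in S5 and 880 in S6, so healthy and CIA mice overlapped. Endothelial cells fell short of the minimum set here (3 healthy and 3 CIA mice with 10 cells each), and no test was run within that type.

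Across the 28 pools the genes whose log2(CPM + 10) ran most like the summed members were Sptbn1 (Pearson's r = 0.796), Smarca2 (0.758), Zbtb20 (0.751), Slc41a1 (0.75) and Selenow (0.748), out of 9697 genes. Each member was also set against the sum of the other members over the same pools. Iigp1 had the highest r (0.765), then Irf1 (0.651), Gbp2 and Gbp3 (both 0.644), with Cxcl10 (0.261) and Cxcl9 (0.195) the lowest. The pools share mice, libraries and depth, and these values are descriptions.

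CIA was compared with healthy over all annotated cells of each organ, with the UMIs of a mouse summed. No member passed an adjusted p of 0.05 (edgeR's quasi-likelihood test, Benjamini-Hochberg over all genes of a fit) in any of the 5 organs, and DESeq2 called none either. DESeq2 gave no adjusted p for 9 of the 10 members in joint, 9 in lung, 8 in muscle, 3 in spleen and 1 in skin, so it could not call those. The share of all genes called was 0.129% in joint, 0.514% in lung, 0.159% in muscle, 0.0901% in skin and 0.474% in spleen. At an unadjusted p under 0.05, 4 of 39 tests of members with at least 10 UMIs passed, against 6.67% of all such tests in those organs, and DESeq2 gave 2 over all members. In bulk sums, fewer cells of a type and less RNA per cell cannot be told apart. Each replicate is a mouse.

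The summed members overlapped between groups in every organ. In joint they were at 272.8 CPM in H3, 242.3 in H4 and 125.1 in H7, and at 418 in S1, 299.5 in S3, 207.4 in S5, 621.1 in S6 and 39.1 in S8. The highest mice were CIA mice, and so was the lowest. In muscle the healthy mice ran from 332.6 to 482.5 CPM (median 412.4) and the CIA mice from 191 to 773.2 (median 452.4). In lung the healthy mice ran from 51.6 to 197.9 CPM (median 163.8) and the CIA mice from 0 to 271.5 (median 222.4). Skin (healthy median 209.2, CIA 230 CPM) and spleen (259.1 and 271.4 CPM) were closer still.

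**Figure D2:**
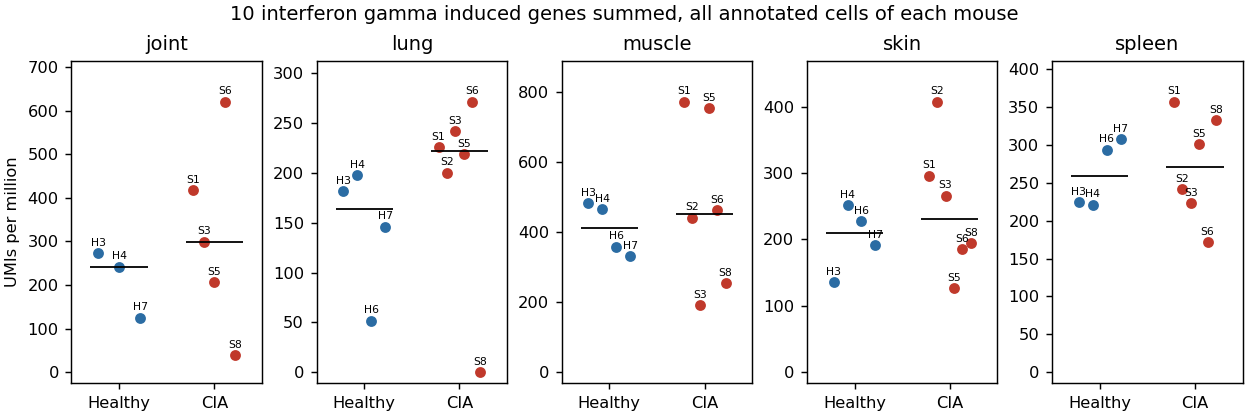
CPM of the 10 genes summed, over all annotated cells of each mouse, in 5 panels (1 per organ) with healthy mice in blue, CIA mice in red and a line at the median. The groups overlap in every organ, from 39.1 to 621.1 CPM among CIA mice in joint and from 171.9 to 357.2 CPM in spleen.

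In joint, 9 of the 10 members had a positive log2 fold change (median 1.44), against 57.6% of all genes with at least 10 UMIs (median 0.172). None had groups that did not overlap, against 1.62% of all such genes with every CIA mouse above every healthy mouse. Iigp1, the vacuole effector, was at 11.1 CPM in H3, 28.5 in H4 and 0 in H7, and at 78.3 in S1, 32.4 in S3, 32.3 in S5, 207 in S6 and 0 in S8. Of the 5 CIA mice, 4 were above the 3 healthy mice and S8 had no UMI. In H7 and S8, 3 UMIs stood for 41.7 and 39.05 CPM, above the levels of S3 and S5. Their counts of 0 therefore do not place them below S3 and S5. The log2 fold change was 2.20 (SE 0.837, unadjusted p = 0.00855, adjusted p = 0.441, edgeR), or 2.14 without the cells of shared barcodes, and within the experiment that held 2 of the 3 healthy mice it was 1.97. Leaving out each mouse gave 1.73 (without H7) to 3.22 (without H4). It rested on 105 UMIs in CIA and 6 in healthy mice, of which endothelial cells gave 64 and 5 and fibroblasts 31 and 0. Pooled over mice, endothelial cells were at 273 CPM of Iigp1 in CIA and 133 in healthy mice.

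The cell type make-up of the joint moved as well. Fibroblasts were 42.2 to 52.8% of annotated cells in healthy mice and 4.82 to 44.4% in CIA mice. Granulocytes, the cells lowest in the members, were 3.15 to 13.9% and 14.0 to 54.2%. Endothelial cells, which gave most of the joint Iigp1 UMIs, were 1.39 to 17.3% in healthy and 3.61 to 35.1% in CIA mice, ranges that overlapped. The part of these shares in the joint values was not tested. Irf1, by contrast with Iigp1, had a log2 fold change of -0.32 (SE 0.615, adjusted p = 0.874, edgeR), with healthy mice at 178.2, 142.5 and 55.6 CPM and CIA mice at 115.8 (S1), 121.4 (S3), 75.6 (S5), 175.2 (S6) and 0 (S8). Cxcl10 was at 21.4 to 55.6 CPM in healthy mice, and at 78.3 in S1, 89.0 in S3, 28.9 in S5, 63.7 in S6 and 0 in S8 (log2 fold change 0.99, adjusted p = 0.743, edgeR). No Cxcl9 UMI was counted in healthy joint, against 5 in S1, 1 in S3 and 11 in S5, a pooled level at least 1.07-fold higher in CIA (floor of 3 counts over the healthy mice, unadjusted p = 0.04, adjusted p = 0.619, edgeR). A single fibroblast of S5 held 8 of these 17 UMIs, and without it the bound was 0.567, so no fold above 1 is set. Ifng gave 3 UMIs in joint, 2 in S1 and 1 in S6.

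In spleen, Iigp1 was low in all mice. It was at 0 in H3, H6 and H7 and 2.43 CPM (1 UMI) in H4, and at 13.1 in S1, 4.64 in S2, 9.30 in S3, 17.7 in S5, 14.9 in S6 and 9.92 in S8 (19 UMIs). Every CIA mouse was above every healthy mouse, as for 0.746% of all genes with at least 10 UMIs, and Iigp1 was the only one of 9 members of which this was true. The order of single mice lies within the counting limit, since 3 UMIs stand for 26.9 CPM in H3, 31.5 in H6 and 20.5 in H7, above the level of every CIA mouse. The pooled ratio was 7.38, with a counting interval from 1.17 to 306, and the log2 fold change was 2.85 (SE 1.26, unadjusted p = 0.0235, adjusted p = 0.649, edgeR). It was also 2.85 without the cells of shared barcodes and 2.91 without S8, and leaving out each mouse gave 2.62 (without H7) to 4.52 (without H4, the only healthy mouse with a UMI). In CIA the UMIs came from NK cells (7), T cells (5), erythrocytes (4) and B cells (3). In the whole spleen 6 of 9 members were higher in CIA, against 57.3% of all genes.

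The other spleen members overlapped. Healthy spleens held Gbp7 at 8.98 to 13.7 CPM (median 10.1) and CIA spleens at 7.47 to 44.7 (median 18.8), with a log2 fold change of 1.19 (adjusted p = 0.696, edgeR). Gbp4 ran the other way, with a median of 41.5 CPM in healthy (26.9 to 51.1) and 22.3 in CIA spleens (0 to 31.5; log2 fold change -0.83, adjusted p = 0.716, edgeR). Irf1 was level, with a log2 fold change of -0.02 (SE 0.399). Ifng was at 8.98 to 41.1 CPM in healthy spleens and 0 to 17.7 in CIA spleens. Its log2 fold change was -1.47 (unadjusted p = 0.0543, adjusted p = 0.696, edgeR), opposite in sign to that of Iigp1. Of its 19 healthy UMIs, 10 were in cells labelled as B cells and 3 in monocytes, types with 0 in CIA. In NK cells Ifng went the other way, with 5 UMIs in healthy and 12 in the CIA mice compared (log2 fold change 0.503, SE 0.936).

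**Figure D3:**
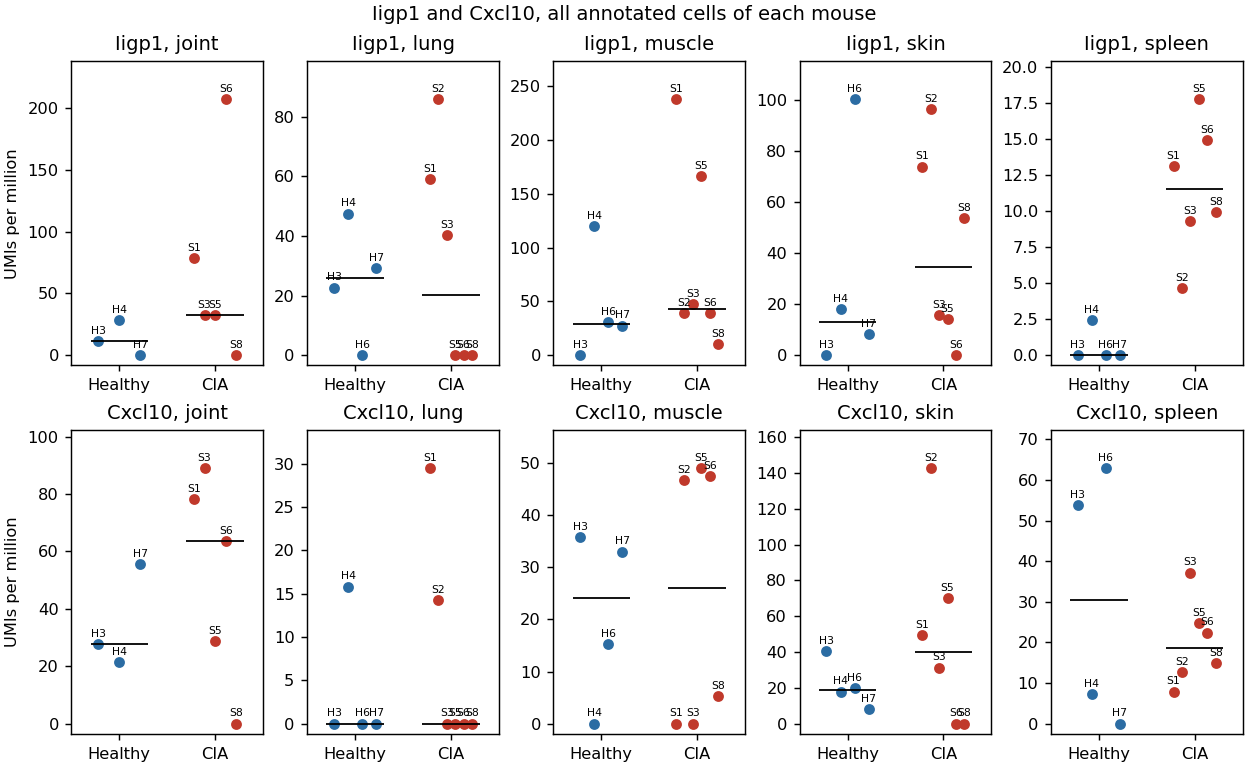
CPM of Iigp1 and Cxcl10 over all annotated cells of each mouse, by organ, on a linear axis of its own in each panel. Healthy mice are in blue and CIA mice in red. Iigp1 of the spleen is the only panel without overlap (2.43 CPM at most in healthy and 4.64 at least in CIA mice), and S2 leads Cxcl10 in skin at 142.8 CPM.

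In skin the chemokine Cxcl10 had the lowest p among the members. It was at 40.7 CPM in H3, 17.9 in H4, 20.1 in H6 and 8.29 in H7, and at 49.3 in S1, 142.8 in S2, 31.3 in S3, 70.1 in S5 and 0 in S6 and S8. The 3 highest mice were CIA mice and so were the 2 mice without a UMI. The log2 fold change was 1.65 (SE 0.584, unadjusted p = 0.0046, adjusted p = 0.693, edgeR), where DESeq2 gave an unadjusted p of 0.145. By edgeR it was 0.86 without S2, which gave 34 of the 54 CIA UMIs, and 1.01 within the experiment of S5, S6 and S8. Of the skin members 6 of 8 were higher in CIA, against 52.3% of all genes, and none had groups that did not overlap (0.53% of all genes did, with CIA higher). Irf1 was at -0.27 (SE 0.487). No Ifng UMI was counted in any skin or lung library.

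Muscle and lung showed no member with an unadjusted p under 0.05. In muscle 6 of 9 members were higher in CIA (59.4% of all genes), with none separating the groups (0.478% of all genes did). Iigp1 was at 0 to 119.7 CPM in healthy muscle (median 29.0) and 10.6 to 237.9 in CIA muscle (median 43.3), and its log2 fold change was 0.45 (SE 0.865), or 0.52 without the cells of shared barcodes and 0.69 without S8, whose own level was 10.6 CPM. Leaving out each mouse gave -0.14 (without S5) to 1.67 (without H4). Cxcl10 was at 0.69 (SE 0.695), Igtp at 0.71 (SE 0.693), Irgm1 at 0.20, Gbp3 at -0.12 and Irf1 at -0.17, all with SEs over 0.4. Ifng had its largest count in muscle, with 82 UMIs, of which 52 were in S6, the library that also holds most cells labelled as myocytes. In lung 3 members had at least 10 UMIs and all 3 were higher in CIA (48% of all genes; 1.09% separated the groups, none of the members among them). Gbp3 was at 0 to 45.4 CPM in healthy lung (median 3.96) and 0 to 109.4 in CIA lung (median 55.1; log2 fold change 1.59, SE 0.956), and Irf1 at 25.8 to 87.6 and 0 to 113.1 CPM (0.40, SE 0.695).

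Within cell types, 11 combinations of organ and cell type had at least 3 healthy and 3 CIA mice with 10 or more cells. No member passed an adjusted p of 0.05 in any of them by edgeR or DESeq2. DESeq2 gave no adjusted p for 9 of the 10 members in joint fibroblasts, so it could not call those. The same held for all 9 members with a UMI in joint macrophages, lung macrophages and spleen monocytes. All genes were called at 0.38% in joint fibroblasts, 0.214% in joint macrophages, 0.314% in lung macrophages, 0.0117% in muscle fibroblasts, 0.0685% in muscle macrophages, 0.0997% in muscle T cells, 0.0545% in skin Basal III cells, 0.0766% in skin fibroblasts, 0.0554% in spleen B cells, 0.521% in spleen monocytes and 0.0648% in spleen NK cells. At an unadjusted p under 0.05, 10 of 51 tests of members with at least 10 UMIs passed, against 7.6% of all such tests, all 10 with CIA higher. Among them, Iigp1 and Cxcl9 of joint fibroblasts, Gbp2 of muscle fibroblasts and Gbp7 of spleen monocytes had no healthy UMI. These reached 10 UMIs through CIA mice alone, so their direction was fixed. The direction of all genes that passed was not counted, so the shared direction is not read as a result. DESeq2 gave 1 over all members. Of the 10, 8 were in these fits: joint fibroblasts (3 of 7 tests), muscle fibroblasts (3 of 8), skin fibroblasts (1 of 4) and Basal III cells (1 of 3). In the fit of every gene with a UMI, 1346 of 19235 genes passed in joint fibroblasts and 661 of 17122 in muscle fibroblasts. In skin, 624 of 15661 passed in fibroblasts and 937 of 18338 in Basal III cells. These totals include genes under 10 UMIs, so they are no like share, and a concentration of members in these cells was not tested.

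Joint fibroblasts had 7 members with at least 10 UMIs, all higher in CIA, against 65.8% of all genes. Iigp1 was at 0 in the fibroblasts of H3, H4 and H7 (73, 81 and 38 cells), and at 32.6 CPM in S1, 0 in S3 and 63.8 in S5. That is a pooled level at least 2.45-fold higher in CIA (unadjusted p = 0.003, adjusted p = 0.246, edgeR), where DESeq2 gave an unadjusted p of 0.119. The edgeR value was the lowest adjusted p of any member, although S3 had no UMI. The fitted log2 fold change ran from 4.17 (without S5) to 5.85 (without S3) when each mouse was left out. Cxcl9 was at 0 in the 3 healthy mice and at 9.32 CPM in S1 (2 UMIs), 14.6 in S3 (1 UMI) and 31.9 in S5 (9 UMIs), at least 1.18-fold higher (adjusted p = 0.653, edgeR). A single cell held 8 of the 9 UMIs of S5. Without that cell 4 UMIs remain and the bound is 0.396, so no fold above 1 is set. Irgm1 was at 15.8, 15.5 and 0 CPM in healthy and 23.3, 29.1 and 17.7 in CIA mice. Cxcl9 and Irgm1 were the 2 of 7 members with no overlap between groups (3 mice against 3), against 10.2% of all genes. Irgm1 rested on 2 UMIs in the healthy mice, so its order of single mice lies within the counting limit. Cxcl10 overlapped, at 15.8, 0 and 77.6 CPM in healthy and 60.6, 102 and 63.8 in CIA mice (log2 fold change 1.85, SE 0.902, adjusted p = 0.672, edgeR). Leaving out each mouse gave 1.25 (without H4) to 3.34 (without H7). Irf1 was at 0.11 (SE 0.516).

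Muscle fibroblasts showed the same gene. Iigp1 was at 0 in H3 and H4, 98.3 CPM in H6 (1 UMI) and 143 in H7 (2 UMIs), and at 331 in S1 (4 UMIs), 275 in S2 (4 UMIs), 163 in S5 (32 UMIs) and 356 in S6 (35 UMIs). All 4 CIA mice were above all 4 healthy mice, for 1 of 8 members against 1.65% of all genes. In H4, 3 UMIs stood for 230 CPM, above the 163 CPM of S5, so its count of 0 does not place it below S5. The log2 fold change was 2.76 (SE 0.94, unadjusted p = 0.00335, adjusted p = 0.666, edgeR), the pooled ratio 4.66 (counting interval 1.53 to 23.1) and the value within the experiment of S5 and S6 2.55. Leaving out each mouse gave 2.23 (without H3) to 3.82 (without H7). Gbp2 had no UMI in the healthy mice and 19 in CIA mice, of which S2 had none (at least 1.18-fold higher, adjusted p = 0.666, edgeR). Its fitted log2 fold change was 3.93 without S5 and 4.04 without S6. Cxcl10 was at 88.3, 0, 0 and 71.7 CPM in healthy and 0, 824, 30.6 and 183 in CIA mice (log2 fold change 2.37, SE 0.996, adjusted p = 0.666, edgeR). It was 1.40 without S2, which had 12 UMIs, 8 of them in 1 cell, and 3.21 without H3. In these cells 7 of 8 members were higher in CIA, but so were 78.7% of all genes.

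In skin, Cxcl10 of fibroblasts was at 52.9, 44.3, 74.5 and 0 CPM in healthy mice and at 148 in S1, 173 in S2, 52.6 in S3, 278 in S5 and 0 in S8 (log2 fold change 1.74, SE 0.792, adjusted p = 0.575, edgeR). Leaving out each mouse gave 1.30 (without H7) to 2.38 (without H6). In Basal III cells it was at 0 to 43.5 CPM in healthy mice and 0 to 124.4 in CIA mice (1.78, SE 0.842, adjusted p = 0.695, edgeR), and S2 gave 16 of the 24 CIA UMIs, 10 of them in 1 cell. Without S2 the log2 fold change was 0.632, and without H3 it was 2.83. Counts of members higher in CIA were 4 of 4 in fibroblasts (56.8% of all genes) and 2 of 3 in Basal III cells (56.6%).

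Leukocytes were compared in the same way. In muscle T cells 8 of 9 members were higher in CIA (61.1% of all genes), and Gbp3 alone separated the groups (8.57% of all genes did), at 0, 32.7 and 28.1 CPM in H4, H6 and H7 and 69.4, 42.2 and 45.8 in S2, S3 and S6. In H4, 1 UMI stood for 53.2 CPM, above the levels of S3 and S6, so its count of 0 sets no order. Igtp in these cells was at 0, 10.9 and 21.1 CPM in healthy and 39.7, 10.6 and 82.4 in CIA mice (log2 fold change 1.75, SE 0.857, adjusted p = 0.805, edgeR), or 1.19 without S6 and 2.56 without H7. In spleen monocytes Gbp7 had no UMI in healthy mice and 10 in CIA mice, 8 of them in S2 (at least 1.54-fold higher, adjusted p = 0.628, edgeR). Its fitted log2 fold change was 2.03 without S2, and 3.34 to 3.59 without any other mouse. There Cxcl9, for which monocytes are the main source, was at 0.16 (SE 0.924), and 5 of 6 members were higher (60.4% of all genes). Spleen NK cells had 3 of 4 higher (57.0%), spleen B cells 3 of 4 (48.4%), muscle macrophages 3 of 3 (72.7%), joint macrophages 2 of 2 (66.7%) and lung macrophages 1 of 1 (47.1%).

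The difference of the CIA effect between joint and each other organ was tested in a fit of all 48 libraries. No member passed an adjusted p of 0.05 by edgeR or DESeq2, where all genes were called at 0.00984% (joint against lung), 0.23% (muscle), 0.0% (skin) and 0.0% (spleen). DESeq2 gave no adjusted p for 3 of the 10 members in joint against muscle. At an unadjusted p under 0.05, 4 of 40 tests of members passed against 6.77% of all tests, and none by DESeq2. For Iigp1 the effect in joint exceeded that in lung by 1.86, in muscle by 1.75 and in skin by 1.77 on the log2 scale, and was 0.45 below that in spleen (difference -0.45), each with an SE of 1.23 to 1.52. The Iigp1 effects of the organs were thus not told apart. In macrophages, differences between joint, lung and muscle gave no call of a member either by edgeR or by DESeq2 (all genes 0.00491% for joint against lung, 0.137% for joint against muscle and 0.0687% for lung against muscle), with 1 of 21 tests under an unadjusted 0.05 against 8.02% of all tests. For joint against muscle in macrophages DESeq2 gave no adjusted p for any of the 10 members, so it could call none. The same 10 mice gave each organ, except that joint data of H6 and S2 were not analysed here. With the mouse as a replicate block the number of members called was 0 in each of these 7 comparisons.

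Other genes of the pathway were read from a list of 45 genes around the receptor, the factors downstream of it and their targets. In the fits after the filter on low counts between 0 and 13 of the 45 were tested per comparison and none was called. Among named steps, Ifngr1 was at 1.70 in muscle (SE 0.456, adjusted p = 0.368, edgeR) and Ifngr2 at 2.23 in lung (SE 0.819, adjusted p = 0.513, edgeR). Ciita was at -1.05 in spleen (adjusted p = 0.696, edgeR). In the fit of every gene Acod1, the itaconate-making enzyme of activated macrophages, was called higher in lung (4.29, adjusted p = 0.00321, edgeR) and in lung macrophages (4.20, SE 0.936, adjusted p = 0.00593, edgeR).

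Lists of genes led by type I interferon and of MHC class II genes, which interferon gamma raises through the co-activator Ciita, were set beside the members in the same fits. In the fits after the filter, of 14 type I led genes, Ifi27l2a rose in CIA in 9 of the 16 comparisons, by 2.55 in spleen, 2.68 in muscle, 4.00 in lung, 2.58 in joint fibroblasts, 3.49 in joint macrophages, 4.15 in lung macrophages, 3.92 in muscle macrophages, 3.03 in muscle T cells and 3.56 in spleen monocytes. Ifitm3 rose in joint macrophages (2.14), lung macrophages (2.62), lung (2.21) and spleen monocytes (1.87). Of 6 MHC class II genes, Cd74, H2-Aa and H2-Ab1 fell in joint macrophages (-2.22, -2.17 and -2.05), in lung macrophages (-1.21, -1.39 and -1.12) and in lung (-1.09, -1.13 and -1.05), all by edgeR with adjusted p under 0.05. Summed over all annotated cells of muscle the class II genes were positive instead, from 0.562 (Cd74) to 1.05 (H2-DMa), without a call. This sum holds the muscle library of S8, which stands apart from its label, and class II values without it are not given. Muscle macrophages ran from 0.742 (Cd74) to 1.30 (H2-Ab1), also without a call. Muscle T cells were mixed, with Cd74 at -0.008 and H2-DMb1 at -0.716 but H2-Ab1 at 0.715. In macrophages the CIA effect in joint was below that in muscle for Cd74, H2-Aa and H2-Ab1 (differences -2.89, -3.36 and -3.29). The effect in lung was below that in muscle for H2-Aa (-2.67) and H2-Ab1 (-2.42), also by edgeR with adjusted p under 0.05. The fit of every gene called Ifi27l2a also in joint (3.26), skin (2.09), spleen B cells (2.20) and spleen NK cells (2.23). In spleen it also called Irf7 (2.01), Oas1a (4.20), Rsad2 (2.51), Rtp4 (4.34) and Ifitm3 (2.55), and in skin Cd74 and H2-Aa as lower (-1.77 each). Several of these genes passed the filter and were not called in the filtered fit. These were Ifi27l2a in joint, spleen B cells and spleen NK cells (adjusted p = 0.087, 0.1 and 0.281, edgeR). So were Irf7, Rsad2 and Ifitm3 in spleen (0.123, 0.109 and 0.0701, edgeR) and Cd74 and H2-Aa in skin (0.386 and 0.195, edgeR). The lists differ in depth from the members, whose fold changes had larger SEs, and both were picked with results of these data known, so their counts are no independent evidence.

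**Figure D4:**
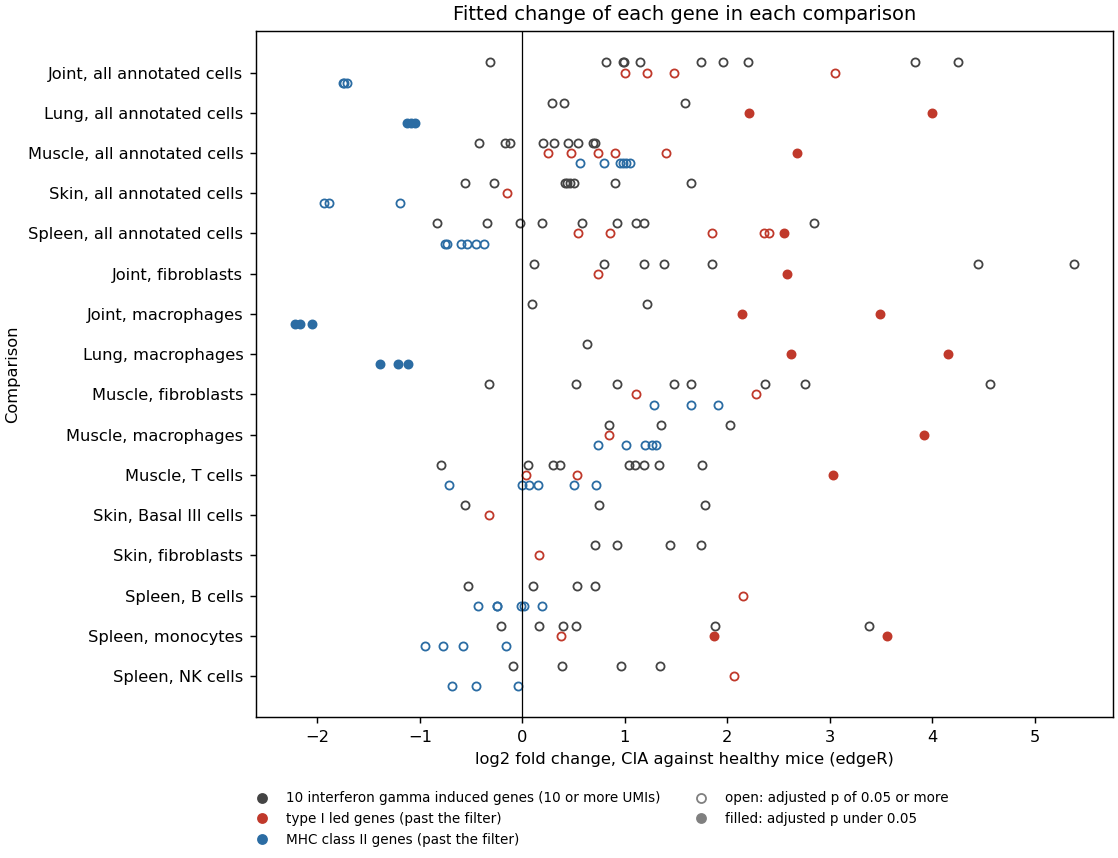
Log2 fold changes, CIA against healthy, of the 10 members, the type I led genes and the MHC class II genes in the 16 comparisons, each point a gene and filled where its adjusted p was under 0.05. Ifi27l2a reaches 4.15 in lung macrophages and Cd74 falls to -2.22 in joint macrophages, while no member passed an adjusted p of 0.05.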

How the data were processed

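UMI counts per gene and cell, with a cell type label per cell, were deposited by the authors, as raw counts without normalization. Per the methods, reads were handled with bcl2fastq, Picard and Drop-seq tools and aligned with STAR to GRCm38 (the submitters' processing notes list GRCh38 and mm9), and cells of low depth or over 20% mitochondrial reads were removed. Per the methods, cells of more than 6000 transcripts were removed as likely duplicates. The deposited counts hold 16 such cells (3 of them labelled, with 0 member UMIs), and no doublet caller was run here. Muscle of H6, H7, S2, S3, S6 and S8 underwent red cell lysis. The 1144 unlabelled cells were left out of comparisons.

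Counts were summed per mouse, organ and cell type (10 cells or more per mouse) and tested with edgeR 4.0.16 in R 4.3.3 (quasi-likelihood F test, TMM, filterByExpr, Benjamini-Hochberg, threshold 0.05). A gene removed by the filter was read from the same fit over every gene with a UMI, and background shares combine both in that way. Few members passed the filter (1 of 10 in joint fibroblasts). Folds are printed for members with at least 10 UMIs. DESeq2 1.42.0, other scalings, no filter, the experiment, lysis and mouse terms, other cell minimums leaving out each mouse and, chosen after seeing the data, leaving out cells of shared barcodes were alternatives. The code was tested on simulated data. Mice pair organs per the labels. All 10 members were named by rule, and of the pathway and comparison lists the genes called plus Ifng, Ifngr1, Ifngr2 and Ciita (1 other gene named by the rule is not reported here). Members and lists were chosen with earlier results of these data known.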

Additional observations from a re-analysis of the deposited data

Results flagged for a closer look

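In groups of 4 to 10 mice, 77 sets of member values were examined for a mouse far from the others, and 7 had one. The cutoff used flags about 1 in 20 sets of normally distributed values. Many of the sets hold few UMIs and ties at 0, where this rate need not hold, so the 7 are not set against it. In joint of CIA mice, S1 was apart for Gbp4 (12.5 CPM, 8 UMIs, the next mouse at 3.40). In lung of CIA mice, S8 held no UMI of any member (0 CPM), against 200.2 CPM in the next lowest mouse, in a library where 3 UMIs stand for 169 CPM. In skin, S6 was apart for Gbp2 (74.1 CPM, 2 UMIs, the next CIA mouse at 12.6) and H4 for Igtp (35.9 CPM, 2 UMIs, the other healthy mice at 0). In spleen, S1 was apart for Gbp7 (44.7 CPM, 17 UMIs, next 20.9), S8 for Cxcl9 (39.7 CPM, 8 UMIs, next 10.7) and, among healthy mice, H4 for Iigp1 (2.43 CPM, 1 UMI).

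The cells without a label, which enter no comparison, held the members at 314 CPM in CIA mice (143 UMIs in 767 cells) and 290.5 CPM in healthy mice (72 UMIs in 377 cells). The difference was not tested.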

How the results depend on the processing

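The number of members called was 0 in all 23 comparisons and in each of the 385 recomputations of it, the mouse as a replicate block among them. DESeq2 gave an adjusted p of NA for 36, 30, 3 and 10 of the member tests within cell types, over organs, between organs and in macrophages. The lowest adjusted p under any alternative was 0.0649 (edgeR, Iigp1 of joint fibroblasts without S3, log2 fold change 5.85). Of 394 recomputed log2 fold changes 362 kept their sign and 32 did not, all of them of values smaller than their SE. With the experiment as a term, Irf1 was at -0.135 in joint fibroblasts and -0.123 in spleen B cells, and in the experiment of S5, S6 and S8 alone at -0.324 in spleen B cells and 0.0228 in muscle. Without the filter, Gbp3 in muscle was at 0.088 and Irf1 in spleen at 0.121. With plain library sizes, Gbp3 in muscle was at 0.157 and Irf1 at 0.0373, and with red cell lysis as a term Gbp3 in muscle was at 0.199. Irf1 in spleen was at 0.0168 by DESeq2 and 0.0146 with RLE factors. Leaving out each mouse gave ranges that crossed 0 for Irf1 in joint fibroblasts (-0.0376 to 0.525), muscle T cells (-0.287 to 0.405), spleen B cells (-0.0787 to 0.371), muscle (-0.486 to 0.0744), skin (-0.486 to 0.131) and spleen (-0.211 to 0.26), and in muscle for Gbp3 (-0.497 to 0.597), Iigp1 (-0.142 to 1.67) and Irgm1 (-0.152 to 0.533). Leaving out cells whose barcode occurs in more than 1 library, chosen after seeing the data, changed no sign and no call. The cause of these changes of sign was not tested. Macrophage differences between organs with at least 20 cells per mouse could not be run. Low depth limits all members: in the shallowest library a level of 169 CPM can go unseen.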
